A study of Mus musculus with 4 samples.

Results

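The Hox genes are the 39 mouse homeobox genes arranged in 4 clusters, named HoxA, HoxB, HoxC and HoxD. They were chosen here by symbol alone, as every protein-coding gene named Hoxa, Hoxb, Hoxc or Hoxd followed by a number, out of 21887 protein-coding genes. HoxA held 11 of them, HoxB 10, and HoxC and HoxD 9 each. Sites bound by Flag-tagged Nynrin were mapped by chromatin immunoprecipitation and sequencing (ChIP-seq) with a Flag antibody in lineage-negative marrow cells, which are marrow cells left after those with mature-lineage surface markers are removed. Every library came from C57BL/6 mice, 8 weeks of age, of the genotype 3xFlag-Nynrin-Tg, which carry Nynrin with a triple Flag tag as a transgene. The 4 libraries were 2 of Flag ChIP and 2 of input chromatin, and the peak list of each Flag ChIP library was used. The promoter that drives the transgene, whether marrow was pooled and whether the replicates are separate animals are not given in the labels, and no library of untagged cells was used. Peak lists carry no expression values, so the cell type could not be checked against its markers, and the depth behind each peak is unknown.

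Hox genes encode DNA-binding homeodomain proteins that set position along the body axis in the embryo. Genes of the same number in different clusters are paralogs, and low numbers act toward the head and high numbers toward the tail. In the marrow, genes of the HoxA and HoxB clusters are used by stem and early progenitor cells and are shut down as cells mature. Hoxb4 can expand blood stem cells when overexpressed, Hoxb5 has been used to mark long-term stem cells, and Hoxa9 with its partner Meis1 drives leukaemia when misexpressed.

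Sequences before the start sites of the genes the results turn on are shown first, from RefSeq on GRCm38.p6 (the assembly behind mm10), with CG dinucleotides in capitals. Each run is the 250 bases before the start, read 5′ to 3′ on the gene's own strand. Hoxb4 (chr11:96318017-96318266, plus strand) was the single Hox gene with a summit at an end in both replicates, and 149 of its 250 bases lay under the replicate 2 peak. Hoxa9 (chr6:52227371-52227620, minus strand) is shown as a Hox gene of blood stem cells with no summit there. Gm39852, a long noncoding RNA gene (chr2:74606233-74606482, minus strand), held both summits of a shared peak beside HoxD inside the run printed. Mtx2, which encodes a mitochondrial outer-membrane import protein (chr2:74825562-74825811, plus strand), is the nearest gene with a summit at an end on the other side of HoxD.
Hoxb4: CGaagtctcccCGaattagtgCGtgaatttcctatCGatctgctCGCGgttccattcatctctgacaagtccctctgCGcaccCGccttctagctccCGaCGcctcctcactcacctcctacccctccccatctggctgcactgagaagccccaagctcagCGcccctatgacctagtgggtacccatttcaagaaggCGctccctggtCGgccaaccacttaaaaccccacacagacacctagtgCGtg
Hoxa9: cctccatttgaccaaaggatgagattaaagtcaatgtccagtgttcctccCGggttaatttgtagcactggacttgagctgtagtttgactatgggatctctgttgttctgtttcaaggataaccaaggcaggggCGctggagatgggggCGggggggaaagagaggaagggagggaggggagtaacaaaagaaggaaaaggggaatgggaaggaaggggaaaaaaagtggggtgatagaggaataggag
Gm39852: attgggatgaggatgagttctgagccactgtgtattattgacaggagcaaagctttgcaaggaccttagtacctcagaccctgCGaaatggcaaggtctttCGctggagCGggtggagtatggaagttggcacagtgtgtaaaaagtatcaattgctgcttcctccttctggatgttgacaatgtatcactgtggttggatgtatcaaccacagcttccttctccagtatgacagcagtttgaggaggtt
Mtx2: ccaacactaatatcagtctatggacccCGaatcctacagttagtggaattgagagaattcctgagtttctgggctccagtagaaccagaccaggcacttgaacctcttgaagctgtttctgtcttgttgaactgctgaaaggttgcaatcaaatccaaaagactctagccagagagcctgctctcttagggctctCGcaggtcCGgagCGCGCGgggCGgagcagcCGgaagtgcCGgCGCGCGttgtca
The Hoxb4 run held 14 CG dinucleotides, Hoxa9 held 3, Gm39852 held 3 and Mtx2 held 12.

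How many Hox genes had a Nynrin summit at an end was asked first. The summit is the position of strongest signal in a peak. A summit no more than 1000 bp from either end of a gene is termed an end summit, and a gene is termed called when both replicates gave it one. Of the 39 Hox genes 1 was called (2.56%), which was Hoxb4, beside 31.9% of all protein-coding genes. Replicate 1 alone gave the same 1 gene, beside 32.6% of all genes. Replicate 2, whose list was 2.03 times as long, gave 3 Hox genes (7.69%), which were Hoxa4, Hoxb4 and Hoxb5, beside 45.5% of all genes. The other 36 Hox genes had no end summit in either list. With 1 group of libraries and no control peak list there is no comparison over samples to test, so these shares are descriptions. Adjacent Hox genes can also share a peak, and genes are not replicates.

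Hoxb4 (gene 15412, chromosome 11, 96318267 to 96321638, plus strand) had a replicate 1 peak at 96318571 to 96319057 and a replicate 2 peak at 96318118 to 96319651. The authors' fold enrichment, the signal at the summit over the peak caller's background, was 4.63 in replicate 1 and 5.44 in replicate 2. Their −log10 q values were 5.42 and 8.41. These are middling peaks, at percentile 68.4 of the fold enrichments in replicate 1 and 63.9 in replicate 2. Both summits lay inside the gene, 494 bp after its start in replicate 1 and 175 bp after it in replicate 2, and thus 319 bp apart. The replicate 2 peak covered the whole of the replicate 1 peak, which in turn covered 31.7% of the replicate 2 peak. Hoxb4 lies within the bounds of Hoxb3, which run from 96307101 to 96347930, so the peak was inside both genes and at an end of Hoxb4 only. When peaks with a fold enrichment under 5 were left out of both lists, the replicate 1 peak went and no Hox gene was called, beside 9.52% of all genes.

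Hoxa4 and Hoxb5 had a summit at an end in replicate 2 and none in replicate 1. The Hoxa4 peak (52191933 to 52192285 on chromosome 6) had a fold enrichment of 4.78 and a summit 359 bp beyond the higher-coordinate end of the gene. The Hoxb5 peak (96303065 to 96303312 on chromosome 11) had a fold enrichment of 3.11, at percentile 4.96 of its list, and a summit 435 bp below the lower-coordinate end. In replicate 1 the nearest summits were 178 kb from Hoxa4 and 12.6 kb from Hoxb5. Just outside the 1000 bp limit in replicate 2 were Hoxa7 at 1102 bp, Hoxa3 at 1143 bp and Hoxa9 at 1448 bp.

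By paralog group, Hoxa4 and Hoxb4 made up 2 of the 4 group 4 genes with a summit at an end in replicate 2, and Hoxc4 and Hoxd4 had none. Among the anterior genes of groups 1 to 4, 2 of 12 had one in replicate 2 and 1 in both replicates. Among the central genes of groups 5 to 8 it was 1 of 11 in replicate 2, Hoxb5, and 0 in both. None of the 16 posterior genes of groups 9 to 13 had a summit at an end in either list. Over all protein-coding genes the share was 45.5% in replicate 2 and 31.9% in both replicates. The counts by group rest on 3 Hox genes, of which only Hoxb4 was in both lists, so no order along the clusters is read from them. The posterior genes nearest to a summit were Hoxa9 (1448 bp), Hoxd13 (1538 bp), Hoxa10 (1623 bp) and Hoxd12 (1872 bp), all in replicate 2.

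**Figure D1:**
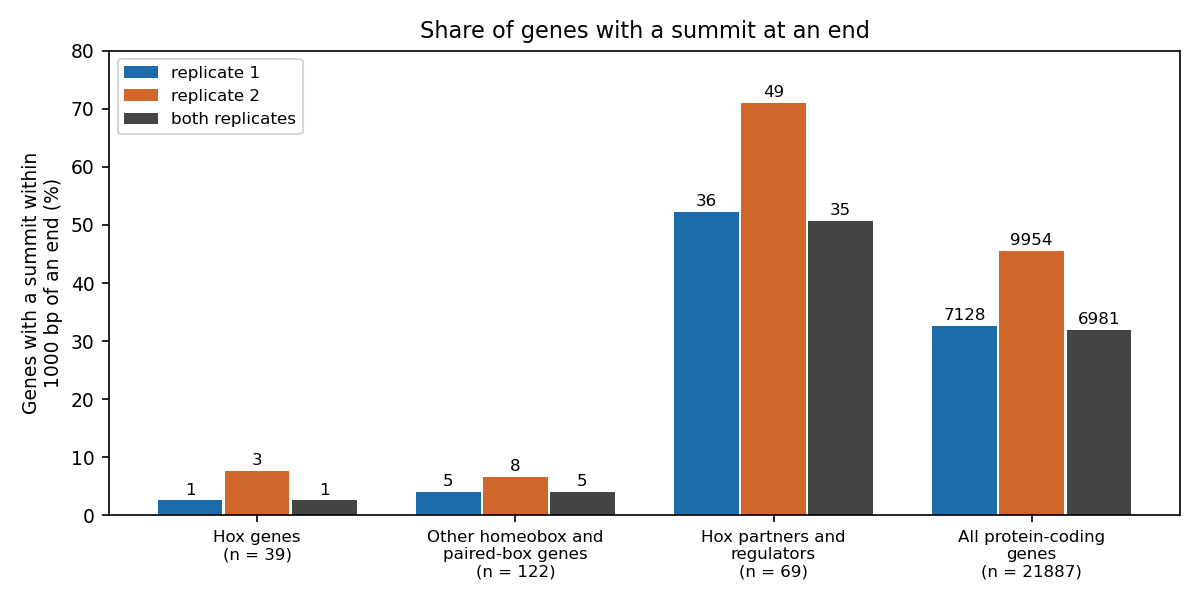
Bars give the percent of genes in each list with an end summit in replicate 1, replicate 2 or both, and the number above each bar is the count of genes. The Hox genes reach 2.56% in both replicates, beside 31.9% of all protein-coding genes and 50.7% of the Hox partners and regulators.

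Next, every peak inside the clusters and 100 kb either side was read. A cluster runs from the first to the last base of its Hox genes, and together the 4 clusters covered 492 kb. Inside them replicate 1 had 1 summit and replicate 2 had 11. The flanks held 4 summits in replicate 1 and 6 in replicate 2, and all of these lay beside HoxD. Inside the clusters this was 0.203 summits per 100 kb in replicate 1, beside 0.470 over the genome, and 2.24 in replicate 2, beside 0.954. Counted per gene the order was the same in both lists, with 0.0256 summits inside the clusters per Hox gene in replicate 1 beside 0.580 summits in the genome per protein-coding gene, and 0.282 beside 1.18 in replicate 2. The clusters thus had more replicate 2 summits per length than the genome and fewer per gene. For the clusters the count per gene took in only summits within the cluster bounds. For the genome it took in every summit, also those far from genes, so the per-gene values rest on unlike lengths of sequence per gene.

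The HoxA cluster, on chromosome 6, had 5 summits in replicate 2 and none in replicate 1. They lay within 37.5 kb in the middle of the cluster, or 35.6% of its length. The peak beside Hoxa4 was the strongest of them, with a fold enrichment of 4.78 and a −log10 q of 6.25. The next lay between Hoxa7 and Hoxa9 (52221451 to 52222227, fold enrichment 4.03), 1448 bp from the nearer end of Hoxa9. A peak inside Hoxa7 (52217221 to 52217783) had a fold enrichment of 3.55. A peak between Hoxa9 and Hoxa10 (52229433 to 52229676, 3.19) lay inside Gm52902, a long noncoding RNA gene. The weakest was inside both Hoxa3 and the noncoding Hoxaas3 (52211626 to 52212360), with a fold enrichment of 2.50, at percentile 0.114 of its list. Hoxa2, Hoxa11 and Hoxa13, at the outer parts of the cluster, had no summit closer than 12.5 kb in replicate 2. In replicate 1 the HoxA genes were 143 to 247 kb from a summit.

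The HoxB cluster (chromosome 11, 96194316 to 96368254) held the only summit of replicate 1 inside any cluster, at Hoxb4, and 5 summits of replicate 2. The replicate 2 summits covered 23.8 kb, or 13.7% of the cluster, from Hoxb6 to Hoxb4. Hoxb4 had the highest fold enrichment of all 11 cluster peaks of replicate 2. It was followed by a peak inside Hoxb3 (96311709 to 96311983, fold enrichment 5.31, −log10 q 7.83) that lay between Hoxb5 and Hoxb4. A peak 3049 bp before Hoxb4 (96315034 to 96315394) had a fold enrichment of 3.99, a peak inside Hoxb6 (96294462 to 96294721) had 3.72 and the Hoxb5 peak had 3.11. Hoxb7, Hoxb8, Hoxb9 and Hoxb13 on one side and Hoxb2 and Hoxb1 on the other had no summit inside them and no end summit.

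The HoxC cluster (chromosome 15, 102921131 to 103036856) had no summit in either list, nor did its flanks. All 9 HoxC genes lay in a single stretch without summits, which ran for 518 kb in replicate 1 and 441 kb in replicate 2. Of the distances between neighbouring summits on a chromosome, 7.82% were at least that long in replicate 1 and 4.01% in replicate 2, where the medians were 38.6 kb and 17.3 kb. These shares count stretches. A long stretch covers more of the genome than a short one, so a larger part of the genome lies in stretches that long. In both lists the stretch began at Calcoco1, and in replicate 1 it ended at Cbx5, while in replicate 2 it ended at a summit below Cbx5. Calcoco1, 199 kb below the cluster, was a called gene (fold enrichment 4.47 and 9.30). Cbx5, which encodes a heterochromatin protein, was a called gene 155 kb above it (9.07 and 11.4).

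In the HoxD cluster (chromosome 2, 74668225 to 74765142) replicate 2 had 1 summit and replicate 1 had none. It lay between Hoxd13 and Hoxd12 (74672923 to 74673234, fold enrichment 4.52), 1538 bp from Hoxd13 and 1872 bp from Hoxd12. Hoxd1, Hoxd3, Hoxd4, Hoxd8 and Hoxd9 were 24.6 to 61.1 kb from a summit in replicate 2. Evx2, a homeobox gene next to Hoxd13 that is not a Hox gene, had weak peaks inside it in replicate 2 only, with fold enrichments of 3.19 and 2.92. Evx1, its counterpart beside HoxA, had its nearest summit 301 kb away in replicate 1 and 83.9 kb away in replicate 2.

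**Figure D2:**
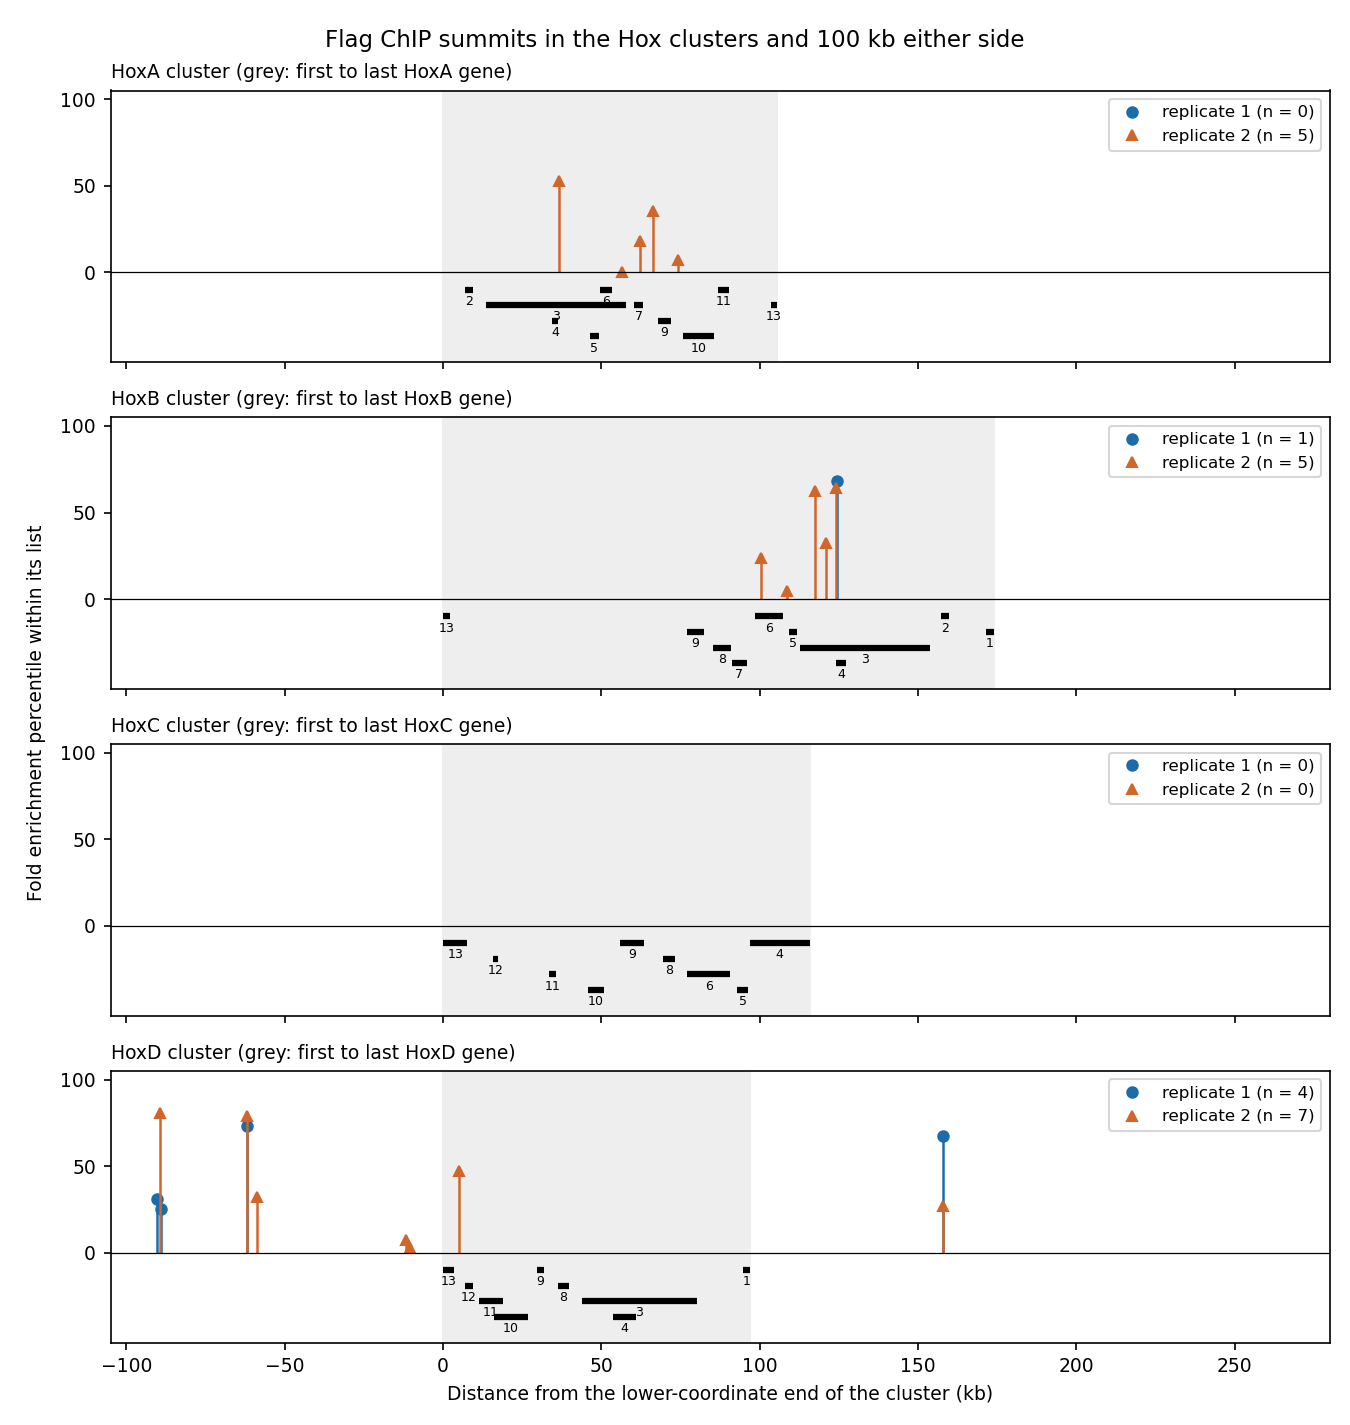
Each panel places the summits of 1 cluster and 100 kb either side by distance in kb from the cluster's lower-coordinate end, with height giving the percentile of fold enrichment within its list and black bars giving Hox genes by number, with 1 gene of HoxA not drawn. Replicate 2 summits fall in the middle of HoxA and between Hoxb6 and Hoxb4, replicate 1 has 1 summit inside the clusters, and HoxC has none.

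Overlap between the replicates was read peak by peak. Inside the clusters 1 of 11 replicate 2 peaks overlapped a replicate 1 peak, and this was Hoxb4, while over the whole list 41.8% did. The other 10 had fold enrichments from 2.50 to 5.31 and −log10 q values from 1.48 to 7.83. Of the 11 cluster peaks, 8 were below the middle of the list by fold enrichment, and 4 had a −log10 q of at least 5, beside 58.3% of all replicate 2 peaks. In the HoxD flanks 3 of 4 replicate 1 peaks had a partner, beside 89.2% of all replicate 1 peaks. In replicate 2 it was 3 of 6, beside 41.8%. The replicate 1 list was the shorter one over the whole genome, and the part of list length in this difference was not tested.

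The 3 peaks shared by the replicates in the flanks were all beside HoxD. The first was at Lnpk, which encodes a protein of endoplasmic reticulum junctions, 88.8 kb below the cluster. Its fold enrichment was 3.44 in replicate 1 and 7.17 in replicate 2, and the summits lay 426 and 551 bp from the gene's higher-coordinate end. They also lay 12 and 137 bp from an end of the noncoding gene 4930445N08Rik, so the peak was at both genes. The second was at the start of the noncoding gene Gm39852 (74606155 to 74606546 in replicate 1 and 74606087 to 74606724 in replicate 2), with fold enrichments of 4.83 and 6.91. Its summits lay 138 and 142 bp before the annotated start, within the run printed above, and 26912 and 26916 bp from the nearest protein-coding gene end. The third was at Mtx2, 60.7 kb above the cluster, with fold enrichments of 4.59 and 3.79 and summits 318 and 439 bp after the start. Of these peaks, the one at Gm39852 had its summits closest together in the replicates. Besides the peaks in Evx2, the flank peaks without a partner were 1 in each list. In replicate 1 it lay inside Lnpk (74577850 to 74578135) with a fold enrichment of 3.61, above that of the shared Lnpk peak in the same list. In replicate 2 it lay 3119 bp from Gm39852 (74609193 to 74609616, fold enrichment 3.99).

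The distance from each Hox gene to the nearest summit was read for every gene. Its median over the 39 Hox genes was 143 kb in replicate 1 and 24.6 kb in replicate 2, beside 17.9 kb and 2.17 kb over all protein-coding genes. Within 10 kb of a summit were 1 Hox gene in replicate 1 (2.56%, beside 44.6% of all genes) and 16 in replicate 2 (41.0%, beside 59.1%). By cluster, the replicate 1 medians were 30.7 kb for HoxB, 77.9 kb for HoxD, 193 kb for HoxA and 228 kb for HoxC. In replicate 2 they were 3.25 kb for HoxA, 6.87 kb for HoxB, 24.6 kb for HoxD and 179 kb for HoxC. HoxC was thus farthest in both lists. HoxA differed most between the lists, with genes 143 to 247 kb from a summit in replicate 1 and 0.359 to 32.1 kb in replicate 2. Genes of a cluster share the same few summits, so these distances are not independent.

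**Figure D3:**
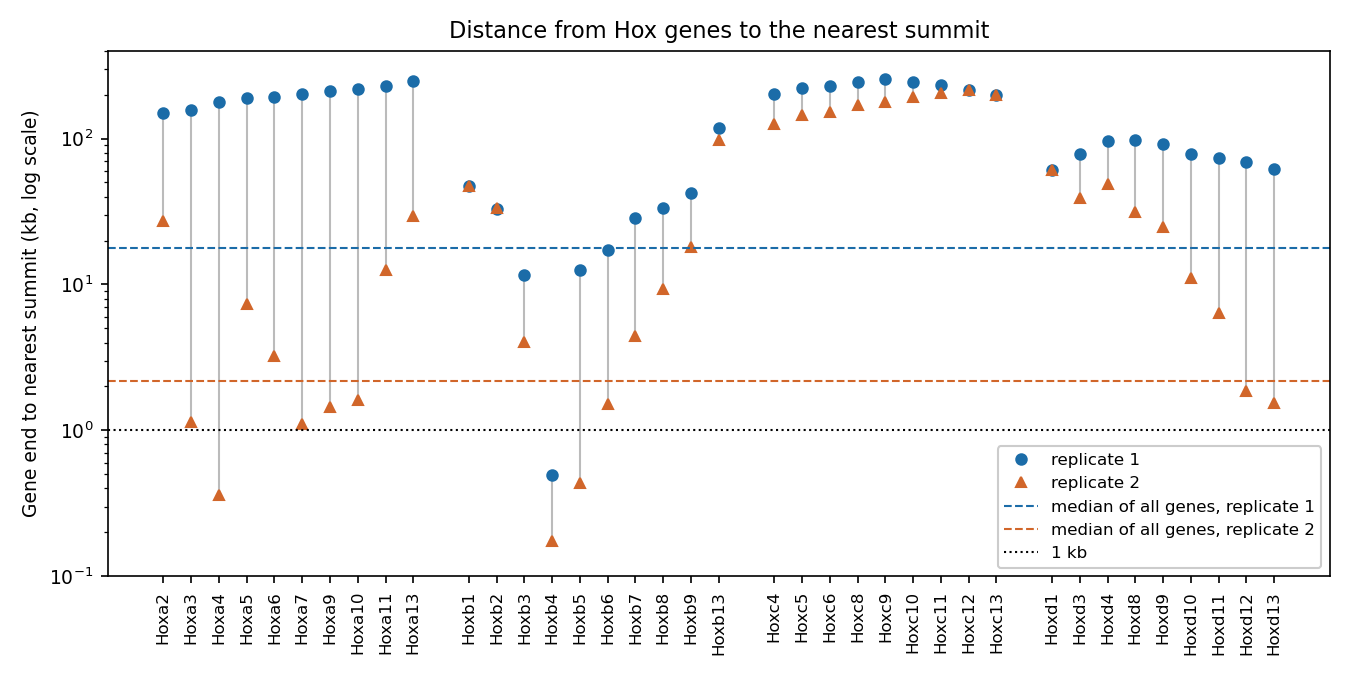
Points give the distance in kb, on a log axis, from the nearer end of each Hox gene drawn, with 1 gene of HoxA left out, to the nearest summit in replicate 1 (circles) and replicate 2 (triangles), with dashed lines at the medians of all protein-coding genes. Hoxb4 alone is under 1 kb in both lists, and HoxC genes lie 126 to 255 kb away.

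Around each cluster the nearest called genes stood well outside it. They were Skap2, an adaptor protein gene (143 kb below HoxA, fold enrichment 6.77 and 14.3), and Tax1bp1, an autophagy receptor gene (453 kb above it, 7.71 and 9.83). For HoxB they were Atp5g1, an ATP synthase subunit gene (119 kb below, 3.36 and 5.81), and Snx11, a sorting nexin gene (399 kb above, 4.93 and 14.0). HoxA, with Evx1, lay in a stretch of 619 kb without a summit in replicate 1, and HoxD with Evx2 in one of 220 kb. Of all such stretches in replicate 1, 6.73% and 15.4% were at least that long. In replicate 2, HoxA held 5 summits and HoxD held 1.

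The noncoding genes of the clusters were counted in the same way. Of 25 long noncoding RNA genes that touched a cluster, 0 were called, beside 8.78% of all such genes, and 1 had an end summit in replicate 2, beside 15.7%. Of 6 microRNA genes 0 were called, beside 4.56% of all such genes, and 1 had an end summit in replicate 2, beside 9.45%. With shares this low over the genome, counts this small show nothing particular to the noncoding genes of the clusters. The genes with a replicate 2 end summit were Mir196b at 507 bp and the long noncoding RNA gene LOC115490409, beside Hoxa4, at 998 bp. Hotairm1, Hotair and Haglr, long noncoding RNAs of HoxA, HoxC and HoxD, were at least 30.0 kb from any summit in both lists. Of the 6 microRNA genes in the clusters, Mir196b was the only one with a summit that close, and Mir10a, before Hoxb4, had the next closest, 1168 bp away in replicate 2 and 1487 bp in replicate 1. Mir196a-1, Mir196a-2, Mir10b and Mir615 were 29.3 to 251 kb away. The mature 5′ arms of the microRNAs at Mir10 and Mir196 genes are given because they show which cluster genes carry the same seed, bases 2 to 8, in capitals.
mmu-miR-10a-5p: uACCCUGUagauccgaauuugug
mmu-miR-10b-5p: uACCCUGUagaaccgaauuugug
mmu-miR-196a-5p: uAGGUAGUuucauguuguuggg
mmu-miR-196b-5p: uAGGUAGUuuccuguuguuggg
The miR-10 pair shares the seed ACCCUGU and the miR-196 pair shares AGGUAGU. The seed AGGUAGU was encoded at Mir196b, which had an end summit in replicate 2, and at the Mir196a genes, which had none in either list. The seed ACCCUGU was encoded at Mir10a, 1168 bp from a replicate 2 summit and so outside the 1000 bp limit, and at Mir10b, 52.9 kb from one.

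Promoter sequence was compared next, by its content of CG dinucleotides, which are dense at many active promoters. RefSeq gave 24 promoters for 22 of the 39 Hox genes, each from 250 bases before the start to 50 after it, among 21263 promoters of protein-coding genes. The Hox promoters had a median of 4.83 CG dinucleotides per 100 bases (1.33 to 15.0), beside 4.33 over all promoters. All promoters were divided at the quartiles of CG content. The share with a summit within 1000 bp of the start in both replicates was 2.35% in the lowest class, 17.7% in the next, 51.8% in the third and 63.8% in the highest. Of the Hox promoters 3, 8, 7 and 6 fell in these classes, and only Hoxb4, in the third class with 4.67 CG per 100 bases, had such a summit. Hoxa13 (15.0), Hoxd13 (12.3), Hoxa5 and Hoxd1 (9.67 each), Hoxa6 (8.67) and 1 of the 2 Hoxd11 starts (8.33) were in the highest class without a summit in both replicates. Hoxa9 (1.33) was in the lowest. The nearest replicate 2 summits to the starts of that highest class were 3252 bp away at Hoxa6 and 4916 bp at Hoxd13.

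**Figure D4:**
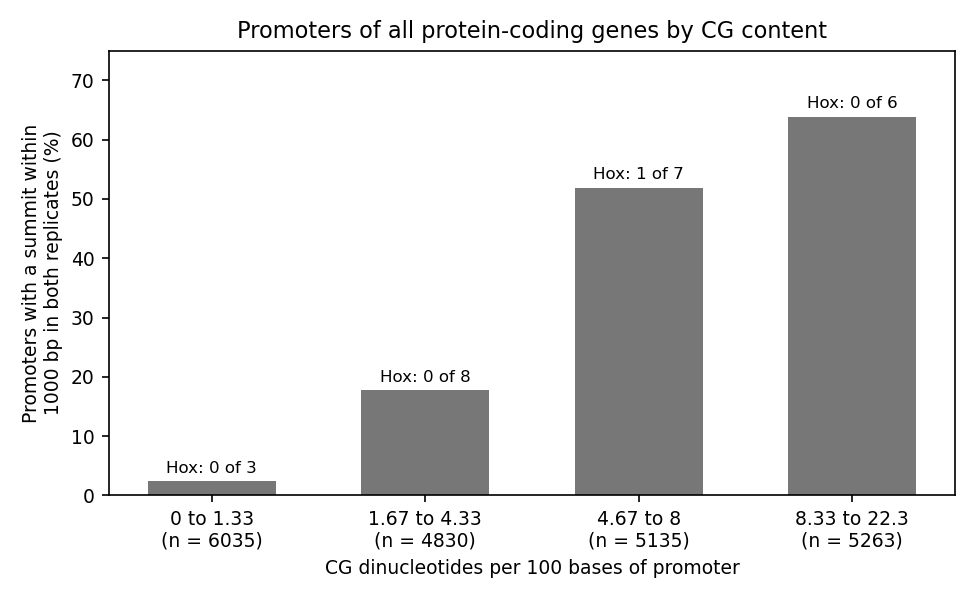
Bars give the percent of promoters of protein-coding genes with a summit within 1000 bp of the start in both replicates, in 4 classes of CG dinucleotides per 100 bases, and the text above each bar counts the Hox promoters. The share rises from 2.35% to 63.8% with CG content, while 1 of 7 Hox promoters in the third class and 0 of 6 in the highest have a summit in both replicates.

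Short motifs were searched on both strands of the same 300 bases. TGATNNAT, a site for Hox proteins with Pbx, was found in 4 of 24 Hox promoters (Hoxa2, Hoxb1, Hoxb8 and Hoxd11), beside 7.45% of all promoters. Its stricter form TGATTNAT, whose matches are all matches of the first as well, was in Hoxa2 and Hoxd11, beside 2.75%. TGACAG, a Meis site, was in Hoxa2 and Hoxa3, beside 18.7%. CACGTG, the E-box, was in 5 (Hoxd1, Hoxd4, Hoxd10, Hoxd11 and Hoxd13), beside 7.84%. GATTGG, the CCAAT box read on the other strand, was in 5, beside 18.2%, and TATAAA in 4, beside 12.6%. CCGGAAGT, an ETS site, was in 0 of 24, beside 5.15%, as was the NRF1 motif GCGCA, any base, then GCGC, beside 6.38%. The Hoxb4 promoter held none of these letters in its 300 bases. A match describes these letters only, and a site in use was not measured.

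The genes that work with Hox proteins or control the clusters were read from a list of 69. Of these 35 were called (50.7%), beside 31.9% of all genes, and 14 more had a summit at an end in replicate 2 only. Each group below is small, and none was tested against the share over all genes. TALE cofactors, the homeodomain proteins that bind DNA together with Hox proteins, had 4 called of 9 (44.4%). Among them were Pknox1 (fold enrichment 6.32 in replicate 1 and 11.7 in replicate 2), Pbx3 (7.10 and 7.17) and Pbx2 (4.66 and 4.92), whose peak was shared with Gpsm3. Meis1 (3.32) and Pbx4 (8.24) had a summit in replicate 2 alone, and Meis2, Meis3 and Pknox2 had none.

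Complexes that keep Hox genes active came next. Of 8 genes of the MLL complex, which methylates histone H3 at Hox genes, 6 were called, led by Wdr5 (7.11 and 8.24), Kmt2b (5.26 and 8.77, shared with Zbtb32), Rbbp5 (5.03 and 9.03) and Kmt2a (4.31 and 12.5), the gene for MLL itself. Of 7 genes for the histone methyltransferase DOT1L and its elongation partners, 3 were called (42.9%, beside the same 31.9%). These were Dot1l (3.73 and 11.4), Aff4 (3.14 and 11.4) and Aff1 (2.98 and 6.91). Neither of the H3K27 demethylase genes Kdm6a and Kdm6b, nor any of the 3 Cdx genes, which switch on Hox genes in the embryo, had a summit at an end. Over all genes the share with one was 32.6% in replicate 1 and 45.5% in replicate 2.

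Of 10 genes of Polycomb repressive complex 2, which silences Hox genes by methylating H3K27, 8 were called, led by Eed (6.76 and 10.6), Suz12 (5.73 and 8.77), Ezh2 (4.60 and 10.4) and Ezh1 (3.71 and 8.50). All 10 had a summit in replicate 2. Of 12 genes of Polycomb repressive complex 1, which binds the silenced clusters, 7 were called, among them Cbx8 (5.59 and 12.8), Ring1 (5.07 and 9.57), Rnf2 (4.27 and 7.44) and Phc1 (3.71 and 7.44). Ctcf (7.50 and 12.2), the insulator protein that divides the clusters, Smc3 (4.58 and 11.4) and Stag2 (3.16 and 4.25) were called among 7 insulator and cohesin genes (42.9%). Of 6 retinoic acid receptor genes, whose products switch on anterior Hox genes, only Rxrb (5.46 and 9.30, shared with Slc39a7) was called (16.7%). Of the 5 other regulators, Nup98 (7.92 and 10.9, shared with Pgap2), a leukaemia fusion partner of Hoxa9, Ash1l (5.26 and 8.50, shared with Dap3) and Znhit1 (3.46 and 3.79, shared with Plod3) were called. The Znhit1 peaks did not overlap, at 136986512 to 136987527 in replicate 1 and 136988369 to 136988693 in replicate 2. The replicate 1 summit lay inside the gene, 941 bp from its higher-coordinate end, and the replicate 2 summit 568 bp beyond that end. The Znhit1 call thus rests on different sites in the replicates.

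Homeobox and paired-box genes outside the clusters, from families picked by symbol, were read as relatives of the Hox genes by protein family. The list leaves out the TALE and Cdx genes counted above and some other homeobox families, so it does not stand for all homeobox genes. Of the 122 genes listed 5 were called (4.10%), beside 31.9% of all protein-coding genes. The share of Hox genes was 2.56%, and no test of the difference between the 2 lists was made. They were Prox2 (fold enrichment 7.0 and 10.4), whose peak was shared with Dlst, Pou2f1 (3.49 and 13.3), Hhex (3.64 and 6.11) and Hlx (3.41 and 5.85), both blood-cell homeobox genes, and Six5 (3.97 and 3.49), shared with Dmpk. Hoxb4 had a higher fold enrichment than Hhex and Hlx in replicate 1 (4.63) and a lower one in replicate 2 (5.44).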

How the data were processed

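Flag ChIP peak lists of 2 libraries were used, and the 2 input libraries, for which no list was used, were not analysed here. The submitters' processing notes name Bowtie2, MACS2, FastQC, cutadapt, Trimmomatic and ChIPseeker, with mm10 as the build, and give them no order or role. The control library and the cutoff of the peak calls are not given in the sources used here. Fold enrichment was deposited as a ratio at the summit. Significance is deposited as −log10 of p and of q, and the deposited score, 10 times the −log10 q without decimals, was not used. Replicate 1 lists no −log10 q under 1.31 and replicate 2 none under 1.30, so a weaker site is in neither list.

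Autosomal, X and Y peaks entered (12702 in replicate 1, 25787 in replicate 2). The summit is the peak start plus the summit offset, printed 1-based. Gene bounds came from RefSeq for GRCm38.p6, without strand; starts came from the RefSeq promoter table. Bounds include long predicted transcripts, as at Hoxa3 and Hoxb3. A partner overlaps by at least 1 bp. Fold enrichment was ranked within a list only. By rule, the text names Hox genes with an end summit, cluster peaks, up to 6 shared flank peaks, other genes inside the clusters, uncalled TALE genes, and up to 4 called genes per regulator group, by the lower of their percentiles. Flanking called genes, flank peaks without a partner, homeobox genes outside the clusters and regulators beyond these were picked out after their values were seen. The members and lists were chosen with earlier results of these data known. Some genes counted in the lists are not reported here by name. Calls were checked on simulated data. Alternatives changed the window, cutoff, overlap, flank, gene ends and replicates. Python 3.11.15, numpy 2.4.6 and pandas 2.3.3 were used.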

Additional observations from a re-analysis of the deposited data

How the results depend on the processing

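The count of Hox genes called, 1 of 39 (beside 31.9% of all genes), was also 1 with a 500 bp window (27.9% of all genes) or a 3000 bp window (36.8%). It was also 1 with −log10 q of at least 5 (21.1%), with overlapping peaks at the same gene end (31.6%) and when summits near more than 1 gene were dropped (21.7%). It was 0 with fold enrichment of at least 5 (9.52% of all genes), and 1 to 3 (32.6% to 45.5% of all genes) when 1 replicate was left out, the 3 being replicate 2 alone. Start sites were given for fewer genes, and with start sites only 1 of 22 Hox genes was called (4.55%), beside 34.5% of 17492 genes. The 35 called partner and regulator genes (50.7%, beside 31.9% of all genes) became 13 with fold enrichment of at least 5 (18.8%, beside 9.52%), and 36 to 49 with 1 replicate left out (52.2% to 71.0%, beside 32.6% to 45.5%). The 5 called genes of the homeobox and paired-box list outside the clusters (4.10%, beside 31.9% of all genes) became 3 with a 500 bp window (2.46%, beside 27.9%). They became 2 with −log10 q of at least 5 (1.64%, beside 21.1%) and 1 with fold enrichment of at least 5 (0.820%, beside 9.52%). They became 3 when summits near more than 1 gene were dropped (2.46%, beside 21.7%), and 5 to 8 with 1 replicate left out (4.10% to 6.56%, beside 32.6% to 45.5%).

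The 22 peaks of both lists in the regions became 14 with 50 kb flanks, 38 with 200 kb flanks, 9 with −log10 q of at least 5 and 4 with fold enrichment of at least 5. They numbered 5 to 17 with 1 replicate left out, 5 being replicate 1 alone. The 8 of them with a partner became 2 when 50% of both peaks had to overlap, 4 with −log10 q of at least 5 and 0 with fold enrichment of at least 5. Beyond the added or removed peaks and length, the cause was not tested. No paired analysis was possible because peak lists of 1 group only were used and the results come from no test.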

Other observations

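Among the larger homeobox and paired-box families outside the Hox clusters, none of 14 Nkx, 9 Pax, 8 Lhx, 6 Irx and 6 Dlx genes had an end summit in either list. Over all protein-coding genes the share with one was 32.6% in replicate 1 and 45.5% in replicate 2. In the family of Six5, also with 6 genes, Six5 alone was called (16.7%, beside 31.9% of all genes). These families are small, and none was tested against the share over all genes. Of 15 Pou genes, Pou2f1 was called and Pou6f1 had a summit in replicate 2 only (fold enrichment 3.99). Pitx3 (4.52) and Tlx2 (3.19) were the other genes of the 122 with an end summit in replicate 2 only.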
